A study of Homo sapiens with 12 samples.

Results

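The genes described here encode the proteasome, its activators and its assembly factors. They were chosen by name, as rows of the rlog table whose gene symbol starts with PSMA, PSMB, PSMC, PSMD, PSME, PSMF or PSMG followed by a digit and whose mean rlog over the 12 libraries is at least 4. Of 19755 genes in the table, 49 match the prefix and 47 are members. rlog is the regularized log2 count of DESeq2, in which the differences of genes with few reads are drawn towards 0. The 2 matches left out, PSMA8 and PSMB11, are listed at 0.00 in every library, and the lowest member, PSMA2, has a mean rlog of 5.25. PSMA8 is the alpha subunit of the testis proteasome and PSMB11 is the catalytic subunit of the thymus.

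All libraries come from MOLM13, an established acute myeloid leukaemia line, stably carrying Cas9 from Lenti-Cas9-2A-Blast. The cells were transduced with the guide vector pUSEPR, kept in puromycin, sorted for high RFP and harvested at day 7. There are 4 libraries with YBX1 sgRNA1, 4 with YBX1 sgRNA2 and 4 controls, numbered replicate 1 to 4 in each group. The controls are called empty vector in one label and non-targeting in another, so they carry the vector and the Cas9 but no guide against YBX1. The cells are sorted pools, so each library averages over cells with different edits. The labels do not say whether the replicates were separate cultures, and p-values then measure only the spread between these libraries. In such bulk samples fewer cells of a type and less RNA per cell cannot be told apart.

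The proteasome degrades proteins tagged with ubiquitin. Its 20S core is a barrel of alpha rings around beta rings, and PSMB5, PSMB6 and PSMB7 carry the chymotrypsin-like, caspase-like and trypsin-like sites. The 19S cap binds ubiquitin, unfolds the substrate with a ring of ATPases and feeds it into the core. In blood cells and under interferon gamma, PSMB8, PSMB9 and PSMB10 can take the place of the 3 constitutive catalytic subunits and form the immunoproteasome, and PSME1 and PSME2 form the PA28 activator that can sit on the core in place of the 19S cap. The transcription factors NRF1 and NRF2 drive subunit genes through antioxidant response elements. YBX1, the gene cut here, binds RNA and was named for the Y box, an inverted CCAAT box in promoters.

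The targeted gene followed its labels. YBX1 (ENSG00000065978.18, chr1:42682427-42702349, GRCh38) had rlog values of 11.20, 11.38, 11.08 and 11.09 in the sgRNA1 libraries, 11.93, 12.07, 11.83 and 11.89 in the sgRNA2 libraries, and 12.91, 12.96, 12.76 and 12.81 in the controls. The groups did not overlap, and both guides averaged 1.30 below the controls on the log2 scale (log2 difference −1.30 ± 0.18 SE, n = 8 and 4, exact two-sided permutation p = 0.00202). sgRNA1 left 31.3% of the control level of the mRNA and sgRNA2 left 52.6%. The sgRNA1 libraries were also below the sgRNA2 libraries (log2 difference −0.75, exact permutation p = 0.0286, the smallest that 4 against 4 allows). Of the wider checks, all 9 myeloid markers on the list were well expressed, between a mean rlog of 8.45 for CSF1R and 12.32 for FLT3. Of 13 markers of T, B, erythroid, epithelial and fibroblast cells, 12 had a mean rlog under 4, and 4 of these are listed at 0 in every library.

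The 47 members cover the complex almost whole. They are 7 alpha subunits, 7 constitutive beta subunits, 3 immunoproteasome beta subunits, 6 ATPases and 11 non-ATPase subunits of the 19S cap, 3 assembly chaperones of the 19S cap (PSMD5, PSMD9 and PSMD10), 4 activators (PSME1 to PSME4), the inhibitor PSMF1, 4 assembly chaperones of the 20S core (PSMG1 to PSMG4) and PSMC3IP. PSMC3IP shares the prefix only: it is a partner of recombinases, named for its interaction with PSMC3. The members lie on 17 chromosomes, and PSMB8 and PSMB9 are neighbours in the major histocompatibility complex (chr6:32840717-32844703 and chr6:32844136-32859585, GRCh38).

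Levels of different genes can be compared only per length, so the log2 of the longest annotated transcript in kb was subtracted from the mean rlog. On this log2 scale the members ran from 3.17 (PSMA2) to 10.81 (PSMB3), with a median of 8.44. The constitutive beta ring ran from 8.44 (PSMB2) to 10.81 (PSMB3) with a median of 10.10. The non-ATPase subunits of the cap ran from 7.58 (PSMD14, the deubiquitinase of the cap) to 10.62 (PSMD4, a ubiquitin receptor). Among the catalytic subunits, PSMB8 was at 9.53 per kb against 8.97 for its counterpart PSMB5, PSMB9 was at 6.79 against 9.63 for PSMB6, and PSMB10 was at 7.995 against 10.47 for PSMB7. The mRNA for PSMB8 was thus above that of its constitutive counterpart per length, and those for PSMB9 and PSMB10 were below. PSMB10 shares coding bases with another annotated gene, with 41.7% to itself, while PSMB7 has 100% to itself. The part of this in their levels was not tested. With the median transcript length in place of the longest, the log2 differences per kb were 1.00 for PSMB8 minus PSMB5, −1.45 for PSMB9 minus PSMB6 and −2.67 for PSMB10 minus PSMB7, against 0.55, −2.84 and −2.48.

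The lowest levels in the complex stand beside gene models that share their exons, but not every gene with such a model was among the lowest. All alpha subunits enter the ring in equal number, yet per length PSMA2 and PSMA6 were at 3.17 and 4.16 on the log2 scale, against 10.19 for PSMA3 and 10.70 for PSMA7. With the median transcript length PSMA2 and PSMA6 were at 4.72 and 6.75. In GENCODE 29, only 2.9% of the coding bases of PSMA2 and 29.6% of those of PSMA6 belong to no other annotated gene. PSMA2 overlaps the protein-coding model AC010132.3 and PSMA6 overlaps AL121594.1, and the shares are as low when only genes on the same strand are counted. A further 3 members have under 50% of their coding bases to themselves, which are PSMA1 (11.4%), PSMD9 (41.3%) and PSMB10 (41.7%). Their levels per kb were 7.33, 4.11 and 7.995, against a median of 8.44 over all members. Of the other 42 members, 33 share no coding base. PSMC1, with 13 named pseudogenes, had 24.2% of its exon bases outside its antisense neighbour NRDE2 and a level of 5.39 per kb. The counting rule for reads that fall on more than one gene is not given in the sources used here, the library kit does not mark strand, and the part of these overlaps in the levels was not tested.

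**Figure D1:**
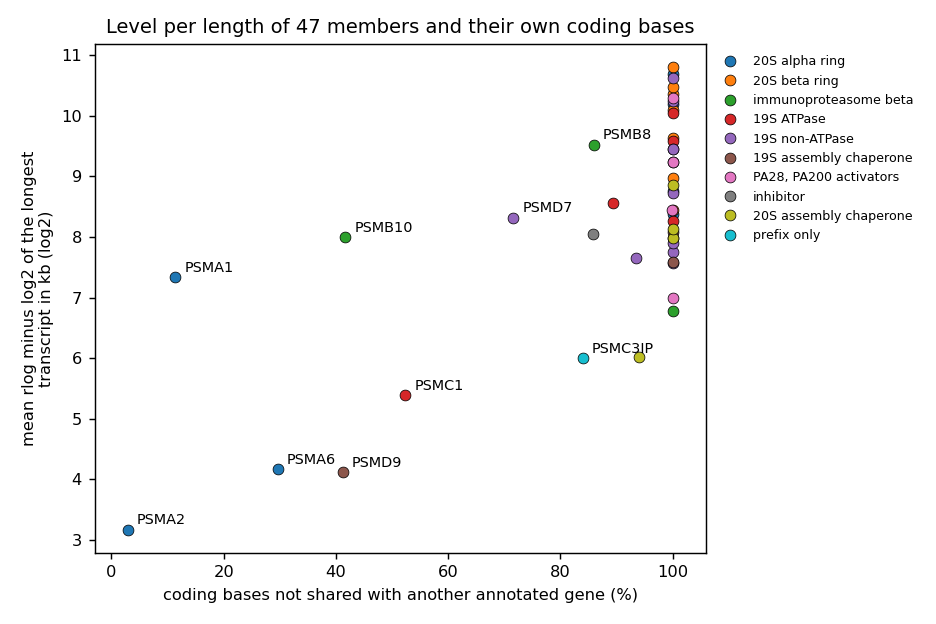
Mean rlog over 12 libraries minus the log2 of the longest transcript in kb (y axis, log2) against the percent of coding bases that no other annotated gene shares (x axis), 1 point for each of the 47 members, coloured by role. PSMA2, PSMA6 and PSMD9, at 3.17, 4.16 and 4.11 per kb, are the lowest 3 points and all lie below 50% on the x axis. PSMA1 and PSMB10 also lie below 50%, at 7.33 and 7.995 per kb.

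With YBX1 cut, the proteasome mRNAs stayed close to their control levels. None of the 47 members passed the threshold with both guides against control (limma, Benjamini-Hochberg adjusted p under 0.05), where 0.1% of the 10982 genes tested did. With the replicate number as a block none passed either, against 5.4% of all genes. At an unadjusted p under 0.05, 0 members passed without the block, against 7.48% of all genes, and 7 members (14.9%) passed with it, against 20.1%. No member had all 8 guide libraries below all 4 controls, or all above, where 0.792% and 0.419% of all genes did. The lowest adjusted p among the members was 0.668, and 0.107 with the block. No single member was found to change, so the differences below are given as values.

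The intervals give a range for the difference of each gene in rlog. They are taken gene by gene and not widened for the 47 members. Changes in mRNA may be larger, since rlog draws the differences of genes with few reads towards 0. Over the 47 members the 95% intervals of the log2 difference ran from −0.38 for PSMD1, which is 23.2% lower, to 0.28 for PSMA6, which is 21.5% higher. With the block they ran from −0.22 for PSMD10 to 0.17 for PSMA6, or 14.3% lower to 12.5% higher. The median SE of a member was 0.058 on the log2 scale, and 0.038 with the block. Only 2 members (4.26%) differed by more than 0.1 in log2, against 14.8% of all genes tested, and 0 differed by more than 0.25, against 0.619%.

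**Figure D2:**
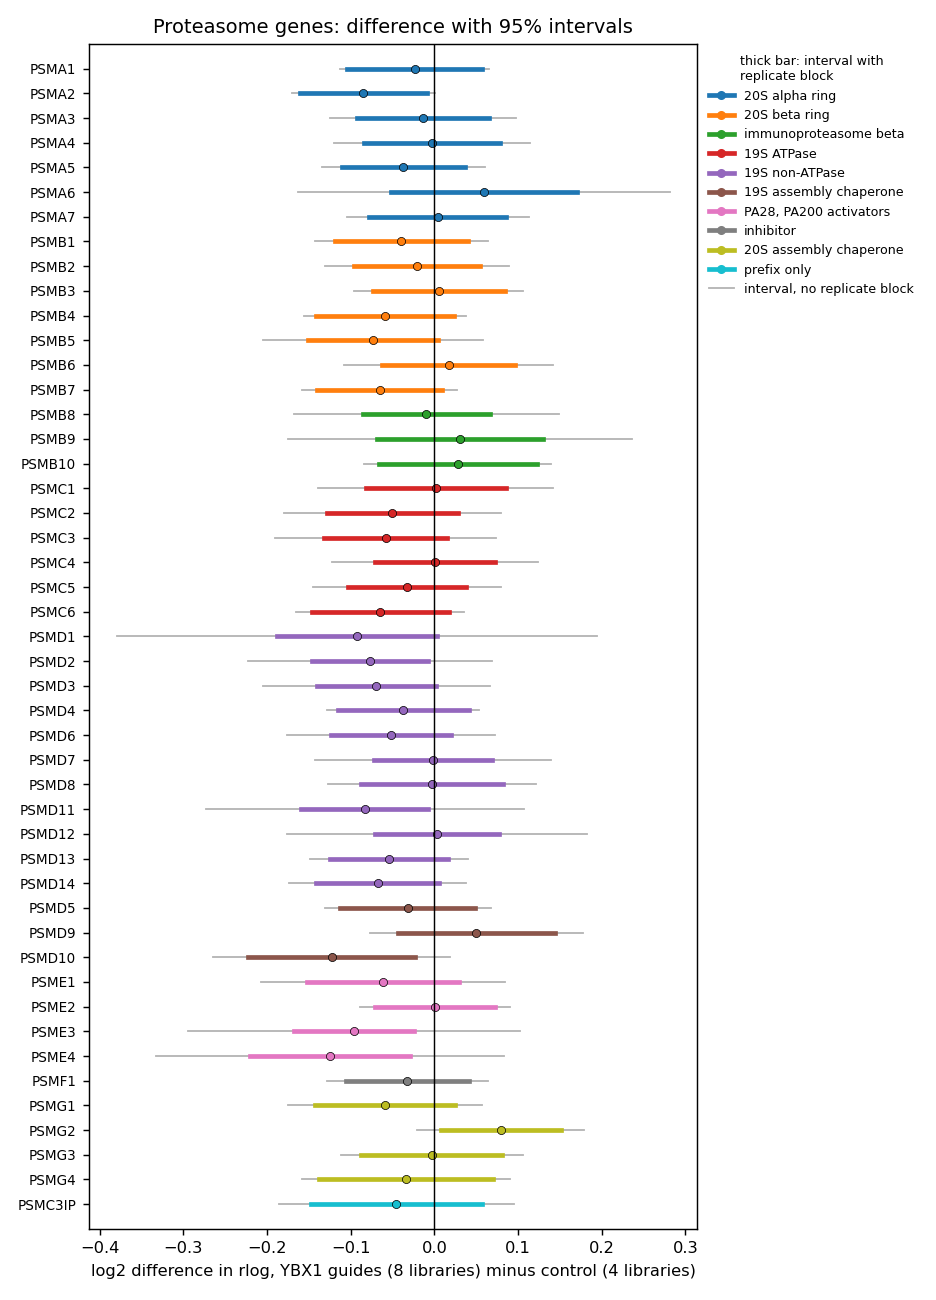
Log2 difference in rlog between the 8 YBX1 guide libraries and the 4 control libraries for each of the 47 members (points, coloured by role), with 95% intervals without the replicate block (thin grey) and with it (thick). All 47 thin intervals and 40 of the thick ones cover 0, and the points run from −0.12 (PSME4) to 0.079 (PSMG2).

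The small differences leaned downwards. With both guides 35 of 47 members (74.5%) were below the control mean, against 53.6% of all genes, and the median log2 difference was −0.034 for the members and −0.0059 for all genes. By role the median log2 difference was −0.013 in the alpha ring, −0.040 in the constitutive beta ring, 0.028 in the immunoproteasome beta subunits, −0.042 in the ATPases, −0.054 in the non-ATPase subunits and −0.079 in the activators. The control library of replicate 1 stood out, with the median member 0.12 above its own mean. The other 3 controls were at 0.027, −0.076 and 0.019. Set against the control of the same number, 2 members (PSMA2 and PSME4, 4.26%) were lower in all 8 pairs and 1 (PSMG2, 2.13%) was higher in all 8, against 6.25% and 4.33% of all genes. Without the control library of replicate 1, 25 members were below the control mean and the median log2 difference was −0.0089. That fit has no block and keeps the guide libraries of replicate 1, so the numbers are not balanced between the groups. With the block and whole replicate numbers left out in turn, 28 to 40 members were below 0. The median log2 difference then ran from −0.051 to −0.022.

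In the 20S alpha ring, PSMA2 had the lowest and PSMA6 the highest difference. PSMA2 had rlog values of 5.26, 5.18, 5.14 and 5.24 with sgRNA1, 5.29, 5.19, 5.27 and 5.24 with sgRNA2, and 5.40, 5.28, 5.30 and 5.26 in controls. All 8 guide libraries lay below the control of the same number, but the groups overlapped (log2 difference −0.085 ± 0.040 SE, limma adjusted p = 0.668). PSMA6 had 6.54, 6.59, 6.55 and 6.06 with sgRNA1, 6.45, 6.72, 6.27 and 6.23 with sgRNA2, and 6.41, 6.48, 6.40 and 6.18 in controls. Its spread within groups was wider than any difference between them (0.059 ± 0.10, adjusted p = 0.967).

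Among the constitutive beta subunits PSMB5, with the site of the chymotrypsin-like activity and the main target of bortezomib, had the lowest difference. It had rlog values of 9.40, 9.35, 9.19 and 9.22 with sgRNA1, 9.46, 9.35, 9.30 and 9.30 with sgRNA2, and 9.56, 9.39, 9.24 and 9.39 in controls. The groups overlapped, and the log2 difference was −0.073 ± 0.062 SE (limma adjusted p = 0.886). PSMB6, with the caspase-like site, had 9.43, 9.57, 9.26 and 9.41 with sgRNA1, 9.44, 9.58, 9.39 and 9.39 with sgRNA2, and 9.47, 9.44, 9.29 and 9.47 in controls. It was the highest of the ring, within its spread, at a log2 difference of 0.017 ± 0.058. PSMB7, with the trypsin-like site, had 10.39, 10.49, 10.34 and 10.44 with sgRNA1, 10.34, 10.43, 10.46 and 10.46 with sgRNA2, and 10.50, 10.46, 10.41 and 10.58 in controls, a log2 difference of −0.066 ± 0.044. The other constitutive beta subunits lay between −0.059 (PSMB4) and 0.0049 (PSMB3).

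The immunoproteasome subunits had no shift in common. PSMB8 had rlog values of 10.63, 10.66, 10.78 and 10.90 with sgRNA1, 10.64, 10.67, 10.96 and 10.92 with sgRNA2, and 10.69, 10.68, 10.79 and 10.95 in controls. The controls lie inside the range of the guide libraries (log2 difference −0.0097 ± 0.074 SE, limma adjusted p = 0.991). PSMB9 had 8.10, 8.10, 8.17 and 8.35 with sgRNA1, 8.10, 8.02, 8.45 and 8.44 with sgRNA2, and 8.06, 8.004, 8.23 and 8.45 in controls (0.030 ± 0.096). PSMB10 had 8.22, 8.26, 8.30 and 8.21 with sgRNA1, 8.36, 8.24, 8.43 and 8.29 with sgRNA2, and 8.27, 8.15, 8.26 and 8.37 in controls (0.028 ± 0.052). In all 3 genes the guide libraries and the controls overlapped. PSME1 and PSME2, the subunits of PA28, had log2 differences of −0.062 ± 0.068 and 0.0012 ± 0.042.

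In the 19S cap, the ATPases ran from −0.065 for PSMC6 to 0.0015 for PSMC1 in log2 difference. Of the 11 non-ATPase subunits 10 were below 0, from −0.093 for PSMD1, the scaffold on which the ubiquitin receptors sit, to 0.0030 for PSMD12. PSMD1 had rlog values of 10.59, 10.72, 10.35 and 10.23 with sgRNA1, 10.66, 10.61, 10.11 and 10.14 with sgRNA2, and 10.84, 10.68, 10.37 and 10.19 in controls. The replicates of PSMD1 spread over more than 0.4 within every group, several times its difference between groups (SE 0.14, limma adjusted p = 0.955). PSMF1, an inhibitor of the 20S core, had a log2 difference of −0.032 ± 0.045, and PSMC3IP of −0.045 ± 0.066.

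The largest difference downwards was that of PSME4, the PA200 activator, which caps the core during histone turnover. Its rlog values were 9.92, 9.92, 9.76 and 9.61 with sgRNA1, 9.97, 9.93, 9.49 and 9.60 with sgRNA2, and 10.05, 10.00, 9.91 and 9.65 in controls. All 8 guide libraries were below the control of the same number, by 8.28% on average (log2 difference −0.12 ± 0.097 SE, limma adjusted p = 0.874, and 0.116 with the block). PSMD10 was next, and after it PSME3, the nuclear PA28 gamma, with a log2 difference of −0.096 ± 0.093. Upwards, PSMG2, which helps to assemble the alpha ring, was the furthest. It had 9.61, 9.55, 9.65 and 9.74 with sgRNA1, 9.63, 9.54, 9.73 and 9.71 with sgRNA2, and 9.60, 9.51, 9.59 and 9.56 in controls, above the control of the same number in 8 of 8 libraries (0.079 ± 0.047, limma adjusted p = 0.770). The control values lie at the low end of the guide values but overlap them. The other assembly chaperones of the core were lower, down to −0.059 for PSMG1.

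PSMD10, the assembly chaperone also known as gankyrin, came nearest to the threshold. It had rlog values of 8.50, 8.50, 8.66 and 8.79 with sgRNA1, 8.69, 8.56, 8.82 and 8.81 with sgRNA2, and 8.79, 8.79, 8.72 and 8.86 in controls. All sgRNA1 libraries were below the control of the same number, and the first 2 of them were the lowest of the 12. sgRNA1 was lower than control by 11.5% (log2 difference −0.18 ± 0.075 SE, limma adjusted p = 0.873, and 0.0597 with the replicate block). For both guides the log2 difference was −0.12 ± 0.067, with an adjusted p of 0.142 with the block. When replicate 3 was left out of the blocked fit PSMD10 passed, at −0.22 with an adjusted p of 0.0301 for sgRNA1 and −0.17 with 0.0433 for both guides.

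The guides were also set against the controls separately, which shares the controls between the comparisons. None of the 47 members passed with sgRNA1 (0.0455% of all genes, and 3.21% with the block) or with sgRNA2 (0.0364%, and 3.95% with the block), with or without the block. At an unadjusted p under 0.05 2 members passed with sgRNA1 and 0 with sgRNA2, against 5.5% and 5.35% of all genes, and with the block 8 and 3 did, against 16.8% and 19.1%. No member was apart from the controls in all libraries of either guide, where 1.9% of all genes lay wholly below and 1.24% wholly above with sgRNA1, and 1.5% and 1.4% with sgRNA2. The median log2 difference of the members was −0.053 with sgRNA1, where 40 of 47 were below 0, and −0.012 with sgRNA2, where 31 were, against 53.1% of all genes with either guide. Without the control library of replicate 1 the medians were −0.014 and 0.012, with 28 and 18 members below 0. This leave-out again unbalances the replicate numbers. With the block and whole numbers left out in turn, 31 to 42 members were below 0 with sgRNA1 and 21 to 39 with sgRNA2. The medians then ran from −0.060 to −0.026 and from −0.057 to 0.0023. With sgRNA1, 17 members (36.2%) were below the control in all 4 numbered pairs, against 12.6% of all genes. With sgRNA2 there were 4 such members (8.51%), against 13.6%. Above the control in all 4 pairs were 1 member with sgRNA1 and 2 with sgRNA2, against 10% and 10.8% of all genes. The lowest member with sgRNA1 was PSMD10, and with sgRNA2 it was PSME4, at a log2 difference of −0.15 ± 0.12 (limma adjusted p = 0.985, and 0.0961 with the block).

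Tested against each other, the guides gave no call in any member, although they differed in YBX1 itself. None of the members passed for sgRNA1 against sgRNA2, with or without the block, against 0.00911% of all genes, and 0 had an unadjusted p under 0.05 without the block (0.838% of all genes) and 2 with it (6.83%). Of the 47 members 35 were below 0, against 51.4% of all genes, and without the sgRNA1 library of replicate 3 there were 21. With the block and whole replicate numbers left out in turn, which keeps the numbers balanced, there were 29 to 38. In all 4 numbered pairs 9 members (19.1%) were lower with sgRNA1 and 0 were higher, against 8.77% and 7.22%. The log2 differences ran from −0.13 for PSME1 to 0.092 for PSMD1, and their 95% intervals from −0.32 to 0.44. PSME1 had rlog values of 10.35, 10.34, 10.38 and 10.52 with sgRNA1 and 10.43, 10.38, 10.65 and 10.62 with sgRNA2. Every sgRNA1 library was below the sgRNA2 library of the same number, and the ranges overlapped. PSMB4, a non-catalytic beta subunit, was the 1 member (2.13%, against 0.601% of all genes) with every sgRNA1 library below every sgRNA2 library, and 0 were wholly above, against 0.51%.

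Genes that work with the proteasome were looked at in the same fits. Of 47 such genes tested (assembly and regulation, delivery of substrates, ubiquitin and its activation, the NRF1 axis, the interferon axis), 0 passed in any of the comparisons without the block, where 0.1% of all genes did with both guides. With the block 1 passed, with both guides only, where 5.4% of all genes did. It was UBE3C, a ubiquitin ligase that extends chains on proteasome-bound substrates. It had rlog values of 10.40, 10.37, 10.19 and 10.26 with sgRNA1, 10.45, 10.38, 10.15 and 10.21 with sgRNA2, and 10.56, 10.48, 10.35 and 10.29 in controls. Both guides were below the control of the same number throughout, although the ranges overlapped, and UBE3C fell by 0.12 on the log2 scale with the block (adjusted p = 0.0336, and 0.729 without it). None of the 9 myeloid markers passed in these comparisons without the block. With it, both guides gave MPO lower and ITGAM and CSF1R higher (log2 differences −0.42, 0.24 and 0.25, limma adjusted p = 2.63e-05, 0.0148 and 0.0439, and 0.133, 0.668 and 0.619 without the block). With sgRNA1 alone and the block, MPO passed and ITGAM and CSF1R did not. With sgRNA2 alone and the block, 1 of the 9 markers passed lower and 2 passed higher. Of all genes tested, 3.21% passed with sgRNA1 and the block and 3.95% with sgRNA2 and the block. The part of cell state in the values of the members was not tested.

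**Figure D3:**
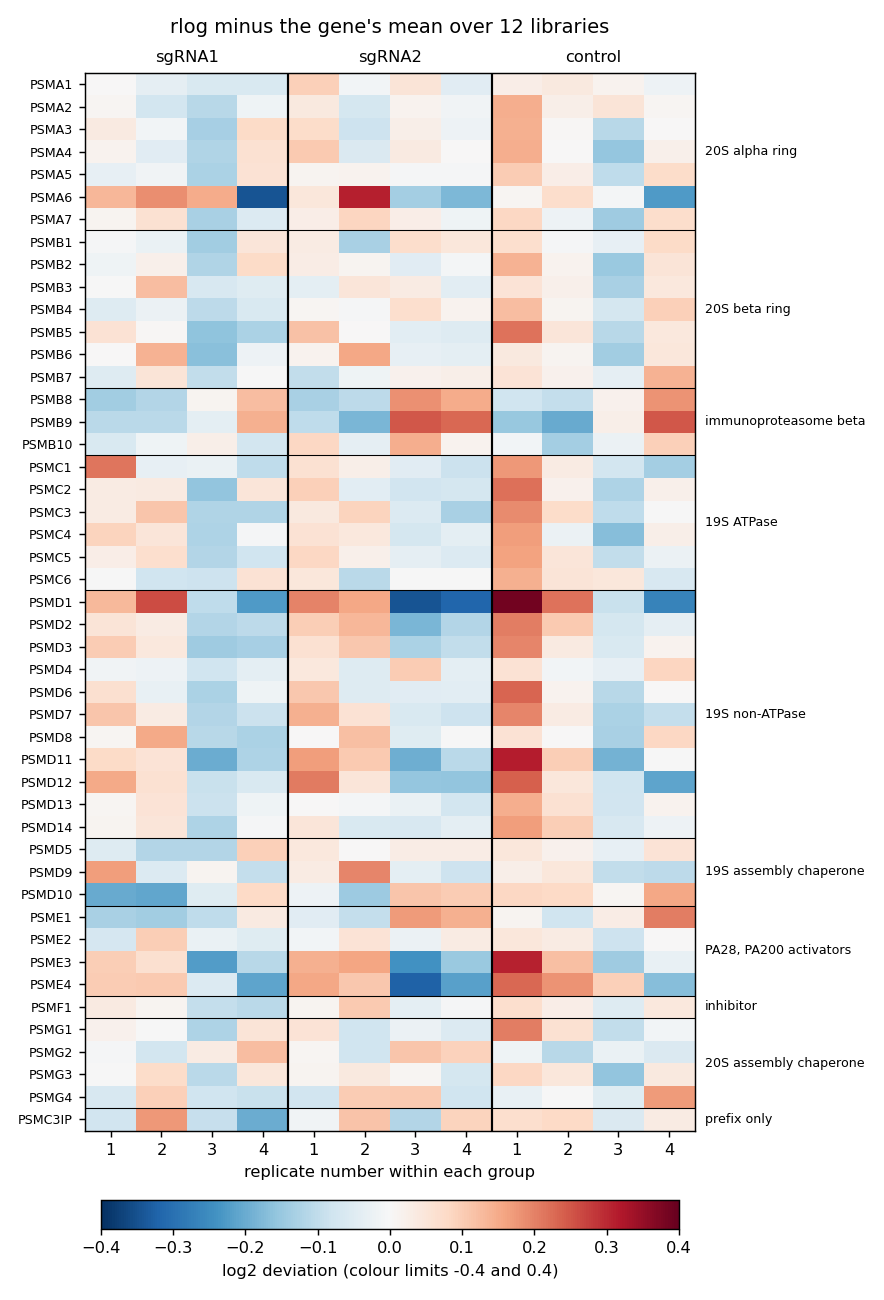
rlog of each of the 47 members minus its mean over the 12 libraries (colour, log2), with the members in rows by role and the libraries in columns by group and replicate number. Within each group most 19S rows are bluer in replicates 3 and 4 than in 1 and 2, PSMB8, PSMB9 and PSME1 are the other way round, and the control of replicate 1 is the reddest column (median 0.12), while that of replicate 4 is close to 0 (median 0.019).

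Within the groups the members varied with the replicate number. A limma F test of the number, with the group in the model, passed for 26 of the 47 members (55.3%). It also passed for 51.8% of all genes tested, so the count of members is near the background, and only the directions and the genes are described. The number held a median of 58.1% of a member's variance and the group 8.09%, against 57.4% and 11.03% for all genes. Of the 26 members, 22 had the mean of replicates 3 and 4 below that of 1 and 2 (46.8% of the members, against 29% of all genes). In 4 members it was above (8.51%, against 22.8%). The F test asks for any difference between the numbers, so it does not test this direction. Lower or higher in replicates 3 and 4 refers to these means from here on, unless every library is named. The labels do not say what the number stands for, and the split of 3 and 4 from 1 and 2 was made with these values known.

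The 19S cap held most of the members that were lower in replicates 3 and 4. Of its 11 non-ATPase subunits 9 passed, all with 3 and 4 lower, and of its 6 ATPases 5 did, also all lower. The alpha ring had 2 of 7 and the constitutive beta ring 3 of 7, likewise lower. Of all genes tested 51.8% passed, and 29% passed with 3 and 4 lower. The subgroups are small and were not tested against these shares. PSMD1 was furthest, with a log2 difference of −0.45 between the means of replicates 3 and 4 and of 1 and 2 (adjusted p of the F test = 1.54e-07). PSME3 and PSME4 differed by −0.30 and −0.29, PSMD11 by −0.27 and PSMD12 by −0.25. In 12 members every library of replicates 3 and 4 was below every library of 1 and 2 in each of the 3 groups (25.5%, against 15.9% of all genes). They are PSMB5, PSMC3, PSMC5, PSMD1, PSMD2, PSMD3, PSMD7, PSMD11, PSMD12, PSMD13, PSME3 and PSME4, of which PSMD13 did not pass the F test.

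The opposite direction was held by fewer members. In 3 of them every library of replicates 3 and 4 was above every library of 1 and 2 in each group, which were PSMB8, PSMB9 and PSME1 (6.38%, against 12.9% of all genes). Their log2 differences were 0.22, 0.28 and 0.16, and the fourth member to pass upwards was PSMD10 at 0.14. PSMB10, at 0.059, and PSME2, at −0.050, did not pass. As a result the rlog of PSMB8 minus that of PSMB5 lay between 1.56 and 1.68 in the 6 libraries of replicates 3 and 4, and between 1.13 and 1.32 in the 6 of replicates 1 and 2. By group the same log2 difference was 1.45 ± 0.22 with sgRNA1, 1.45 ± 0.23 with sgRNA2 and 1.39 ± 0.21 in controls (SD, n = 4 each). The rlog of PSMB9 minus that of PSMB6 likewise separated replicates 3 and 4 (−1.09 to −0.94) from 1 and 2 (−1.56 to −1.33), with group means of −1.24 ± 0.20, −1.20 ± 0.30 and −1.23 ± 0.22. PSMB10 minus PSMB7 did not separate the numbers, at −2.23 to −2.03 and −2.31 to −1.98.

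**Figure D4:**
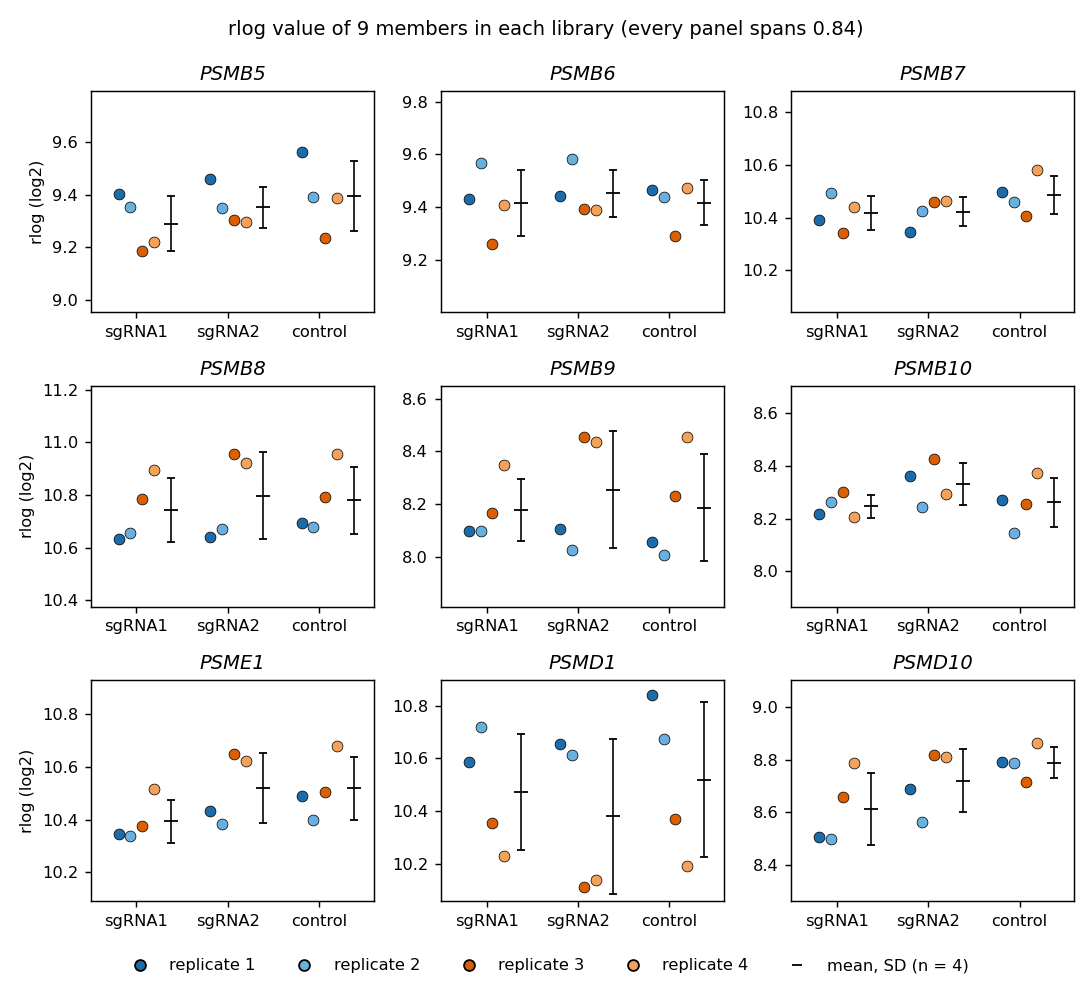
rlog of 9 members in each library (y axes, log2, each spanning 0.84), by group and coloured by replicate number, with the mean and SD of each group (n = 4). The orange points (replicates 3 and 4) lie above the blue ones (1 and 2) in every group for PSMB8, PSMB9 and PSME1 and below them for PSMB5 and PSMD1, while the group means differ little.

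Of the 47 genes that work with the proteasome, 32 passed the test for replicate number, 22 with replicates 3 and 4 lower and 10 with them higher, where 51.8% of all genes passed, 29% lower and 22.8% higher. Lower were VCP, the segregase that extracts substrates (log2 difference −0.31), ADRM1, a ubiquitin receptor of the cap (−0.32), the NRF1 gene NFE2L1 (−0.19), the NRF2 gene NFE2L2 (−0.28) and DDI2, the protease that activates NRF1 (−0.33). Higher were B2M, the light chain of MHC class I (0.26), and NGLY1, which deglycosylates NRF1 (0.21). In the interferon axis genes went both ways, with IRF1 and TAPBP lower (−0.15 and −0.35) and NLRC5, B2M and MX1 higher. Of the 9 myeloid markers 8 passed the test for replicate number, 6 with replicates 3 and 4 higher and 2 with them lower, and of those lower LYZ had the lowest difference of any gene tested (−0.96). Over the 47 members the log2 difference between numbers had a Spearman rho of −0.33 with transcript length and 0.042 with GC content, against −0.15 and 0.085 over all genes, which share the same 12 libraries. The part of these markers and of length in the replicate number was not tested.

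Promoters of the members were searched for known motifs, whatever the direction of the gene. RefSeq promoters (GRCh38.p14, 250 bases before to 50 after the start) were matched by symbol for 41 of the 47 members. These were 51 promoters in all, set beside all 35114 promoters of the table. Matches by symbol on a chromosome that holds no member were left out for the members but kept among all promoters. On either strand, the interferon-stimulated core GAAA-NN-GAAA was in 13.7% of the members' promoters and 3.57% of all promoters, the gamma activated site core TTCNNNGAA in 13.7% and 7.66%, the antioxidant response element core TGACNNNGC in 29.4% and 13.3%, and the Y box core CCAAT in 41.2% and 34.6%. A match is a description of letters and not a binding site. The 7 members with the interferon-stimulated core are shown as 30 bases around it, since 4 of them belong to the immunoproteasome or PA28, with the core in capitals and the strand that of the gene:
PSMB8 (chr6:32844032-32844061): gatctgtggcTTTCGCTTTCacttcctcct
PSMB10 (chr16:67936852-67936881): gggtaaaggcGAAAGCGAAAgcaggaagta
PSME1 (chr14:24136189-24136218): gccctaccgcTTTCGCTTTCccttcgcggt
PSME2 (chr14:24146619-24146648): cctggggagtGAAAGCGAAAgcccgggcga
PSMG4 (chr6:3258904-3258933): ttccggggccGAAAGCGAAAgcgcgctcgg
PSMB4 (chr1:151399495-151399524): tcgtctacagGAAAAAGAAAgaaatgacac
PSMA4 (chr15:78540155-78540184): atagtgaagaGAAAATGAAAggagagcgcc

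The core is the same in PSMB10, PSME2 and PSMG4, and PSMB8 and PSME1 hold its reverse complement. Of these 7, PSMB8 and PSME1 were higher in replicates 3 and 4 in every group. PSMA4 passed the test for the number, with mean rlog values of 10.99, 10.87, 10.82 and 10.93 in replicates 1 to 4. Its mean over replicates 3 and 4 was below that over 1 and 2 (log2 difference −0.054), but the libraries did not separate this way in every group. PSMB10, PSME2, PSMB4 and PSMG4 did not pass the test for the number. PSMB9, the member highest in replicates 3 and 4, has no such core in its window. Its 250 bases before the start are shown beside those of PSMD12 and PSME3, which went the other way, with matches to any of the 4 motifs in capitals:
PSMB9 (chr6:32853942-32854191, plus strand): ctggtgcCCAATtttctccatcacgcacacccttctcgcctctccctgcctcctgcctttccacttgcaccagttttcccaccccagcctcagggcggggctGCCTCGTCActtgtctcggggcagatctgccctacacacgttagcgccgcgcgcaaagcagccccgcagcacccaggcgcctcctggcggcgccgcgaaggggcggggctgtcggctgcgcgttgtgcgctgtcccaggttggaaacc
PSMD12 (chr17:67366578-67366827, minus strand): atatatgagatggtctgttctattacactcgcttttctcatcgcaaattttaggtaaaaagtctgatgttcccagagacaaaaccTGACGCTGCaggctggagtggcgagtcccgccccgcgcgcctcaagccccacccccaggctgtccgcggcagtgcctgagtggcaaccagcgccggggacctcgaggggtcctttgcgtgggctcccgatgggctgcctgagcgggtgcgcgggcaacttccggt
PSME3 (chr17:42833147-42833396, plus strand): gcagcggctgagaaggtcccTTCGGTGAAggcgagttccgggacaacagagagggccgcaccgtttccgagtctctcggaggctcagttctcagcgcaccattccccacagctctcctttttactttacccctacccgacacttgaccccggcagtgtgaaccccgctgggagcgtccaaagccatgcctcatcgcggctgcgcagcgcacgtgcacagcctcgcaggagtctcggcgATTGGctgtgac

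PSMB9 and PSMD12 both hold the antioxidant response element core, on opposite strands, at positions −148 and −165 from the start. The CCAAT box lies at −243 in PSMB9, and its inverse ATTGG lies at −12 in PSME3. PSME3 also holds the gamma activated site core, at −230. These 3 promoters were chosen by the direction of their genes, and a link between motif and direction was not tested.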

How the data were processed

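RNA-seq of MOLM13-Cas9 cells was measured in 12 libraries, 4 per group. The authors deposited one usable table for this purpose, regularized log (rlog) values on a log2 scale for protein-coding genes. Per the labels, poly-A RNA was made into libraries with the NEBNext Ultra RNA kit and read as paired ends. The submitters' processing notes name STAR 2.7.5a and, for GRCh38, HTSeq (version 0.6.1pl), besides Picard 2.9.4, DESeq2 and SAMtools 1.95, and the table is marked as free of duplicates. Counts were not used here, so the depth is unknown and no count test, interval or floor from reads was computed. Their tables of fold changes with p-values between groups, and of z-scores, were not used.

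Genes with a mean rlog of at least 4 (10982 of 19755) were fitted with limma 3.58.1 in R 4.3.3 (lmFit, eBayes with trend), with Benjamini-Hochberg adjustment over all of them and a threshold of 0.05. Intervals are 95%. Both guides were compared in a 2-level model and each guide in a 3-group model. Replicate number as a block was an alternative. Same-numbered libraries of different groups had correlated deviations in all 12 pairs (0.38 to 0.78), by which the numbers were taken to pair the samples, from the data and not the labels. Pairs of different numbers ran from −0.74 to 0.75, and 19 of 24 cases correlated best with their own number. Other alternatives were filters, scaling, the trend, and leaving out libraries. The fits were tested on simulated data with planted changes. The simulated noise was independent between libraries, without the shared deviations of same-numbered libraries seen here. It therefore cannot show how the fits without the block behave with such deviations.

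Members and gene lists were chosen with earlier results of these data known. Named with values were YBX1, each subgroup's highest and lowest member, PSMB5 to PSMB10, PSME1 and PSME2, the extremes of each comparison, members singled out in the test of replicate number, and partner genes past a threshold. Partner genes and markers given for replicate number were picked after their values were seen. All 47 members were found in GENCODE 29 by identifier without its version, 45 with it. Promoters are from RefSeq.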

Additional observations from a re-analysis of the deposited data

Results flagged for a closer look

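Of 93 groups of 4 libraries looked at (the named genes and the median of the members in each group), 1 held a library far from the others, where chance gives about 1 in 20. PSMA6 in the sgRNA1 library of replicate 4 had an rlog of 6.06, against 6.54 to 6.59 in the other 3, a gap of 0.898 of the whole range. PSMA6 also had its lowest control in replicate 4, at 6.18, and only 29.6% of its coding bases to itself.

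YBX1 differed between the guides by a test of the difference itself. The log2 difference of sgRNA1 against sgRNA2 was −0.75 ± 0.076 SE (limma adjusted p = 0.00133), and sgRNA1 was lower in 4 of 4 numbered pairs. No member of the proteasome passed that test.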

How the results depend on the processing

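In the comparisons with control and between the guides, the count of members past the threshold was 0 under nearly every one of 26 alternatives each. The exception was the replicate block without replicate 3, where 1 member (PSMD10) passed with both guides and with sgRNA1. The replicate block by itself gave 0 in each comparison, and leaving out single libraries gave 0 to 0 each time. The median log2 difference moved by less than the spread between replicates, from −0.063 to −0.0089 with both guides, −0.082 to −0.014 with sgRNA1, −0.057 to 0.012 with sgRNA2 and −0.043 to 0.0024 between the guides. Single libraries took the count of members below 0 to 18 with sgRNA2 (without the control of replicate 1) and to 21 between the guides (without sgRNA1 replicate 3). Whole replicate numbers left out with the block gave 21 to 39 with sgRNA2 and 29 to 38 between the guides. The median changed sign under 5 alternatives with sgRNA2 and under 1 between the guides. Of 88 values of 22 named members, 47 changed sign under some alternative, none of them past the threshold. YBX1 lost its call in 1 setting, both guides with replicates 1 and 2 only (log2 difference −1.29, limma adjusted p = 0.115), where 6 libraries remained. The count for replicate number ran from 20 to 34 around 26 when single libraries were left out. PSMD10 lost its call for the number in 5 settings and PSMC5 in 2 (quantile scaling, and without the control of replicate 1), while PSMD13 gained one without the sgRNA2 library of replicate 3. Levels per kb moved with the transcript length used, to 1.00, −1.45 and −2.67 for PSMB8 minus PSMB5, PSMB9 minus PSMB6 and PSMB10 minus PSMB7. Leaving out 6 members (5 with under 50% of their coding bases to themselves, and PSMC3IP) was added after the data were seen and left the counts in these comparisons at 0 and that for replicate number at 24. The causes were not tested. Without counts, depth could not be weighed, and rlog draws small genes together.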
